A study of Arabidopsis thaliana with 16 samples.

Results

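The ethylene response factor (ERF) genes described here are 10 Arabidopsis thaliana genes chosen by locus: ERF1A (AT4G17500), ERF2 (AT5G47220), ERF5 (AT5G47230), ERF6 (AT4G17490), ERF104 (AT5G61600), ERF105 (AT5G51190), ERF1B (AT3G23240), ORA59 (AT1G06160), ERF4 (AT3G15210) and ERF11 (AT1G28370). They were chosen with earlier results of these data known, so their counts are set beside shares over all genes without a test. A peak counted for a gene when the authors' table named that gene as the nearest promoter, at any distance. By this rule 7 of the 10 genes had a peak in at least 1 library, against 12.4% of 27444 nuclear protein-coding genes. They were among 3609 genes of any kind with a peak in the series, and 23 of 14333 peaks were theirs.

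The libraries came from chromatin of whole 12-day-old Col-0 seedlings, precipitated with an immune serum that recognises every WRKY protein. WRKY proteins are plant transcription factors that bind W-box elements. The groups, each of 2 biological replicates, were the wrky18 wrky40 wrky33 triple mutant 2 h after 1 µM flg22, the untreated triple mutant (0 h), wild type (WT) 2 h after 1 µM flg22, and untreated WT (0 h). flg22 is a peptide of bacterial flagellin that sets off pattern-triggered immunity. The serum also recognises WRKY proteins that the mutant keeps, and no seedlings were sampled at 2 h with flg22 left out, so flg22 and elapsed time cannot be told apart.

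ERF proteins carry an AP2/ERF DNA-binding domain, and many bind the GCC box in defence gene promoters. When ethylene is perceived, EIN2 and the EIN3 family switch on ERF genes, which pass the signal to genes such as plant defensins. Some ERF proteins are activators (ERF1A, ERF2, ERF5, ERF6, ERF104, ERF1B and ORA59), and others, such as ERF4 and ERF11, are repressors with an EAR motif. MAP kinases activated by flg22 are known to act on ERF104 and on ERF6.

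The 8 lists held 1372 to 2213 peaks, and the number of reads behind a call is unknown, so a gene without a call is not shown to be free of WRKY proteins. Peaks of replicate 1 were wider, with medians of 525 to 564 bp, while those of replicate 2 had medians of 354 to 385 bp. The table of WT 0 h replicate 1 held no row for 136 of its 1508 region numbers, 6 of them among the first 100, so a call absent there may be an absent row. Values below are the authors' ChIP score of a peak and its percentile in its own list (100 for the top peak). A percentile places a peak among the others of that library and does not measure a change between libraries.

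Calls at the ERF genes were most frequent in WT at 2 h. Giving replicate 1 before replicate 2, the mutant 2 h libraries had peaks at 2 and 3 of the 10 genes, where 6.58% and 7.11% of nuclear protein-coding genes had one. The mutant 0 h libraries had 2 and 2 (4.79% and 5.68% of genes). The WT 2 h libraries had 5 and 4 (6.35% and 6.51%), and the WT 0 h libraries had 1 and 3 (4.59% and 4.93%). WT 2 h had the most in each replicate, with 4 against 3, 2 and 3 genes in replicate 2. In mutant 2 h replicate 2, a further peak labelled as lying in the ERF5 promoter was assigned to AT5G47229, and counting it would make a tie. In each replicate the WT 2 h list (1992 and 2074 peaks) was longer than both 0 h lists and shorter than the mutant 2 h list. With lists cut to equal numbers of peaks, 2 ERF genes rather than 3 were called in both WT 2 h libraries. In WT 2 h replicate 2 the ERF1B peak had rank 1841, beyond the 1372 peaks of the shortest list. Without that peak WT 2 h would tie for the most in replicate 2. Any further part of list length in these counts was not tested.

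Few of these calls were seen in replicate pairs. ERF1A, ERF5 and ERF1B were called in both WT 2 h libraries, whereas in each other group ERF1A alone was called in both. Of the 10 ERF genes this was 1 in mutant 2 h (3.83% of protein-coding genes), 1 in mutant 0 h (3.15%), 3 in WT 2 h (3.87%) and 1 in WT 0 h (2.83%). The ERF1B calls of the WT 2 h libraries lay in different regions, so they do not replicate each other. With 1 region required to be called in both libraries, WT 2 h had 2 ERF genes.

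**Figure D1:**
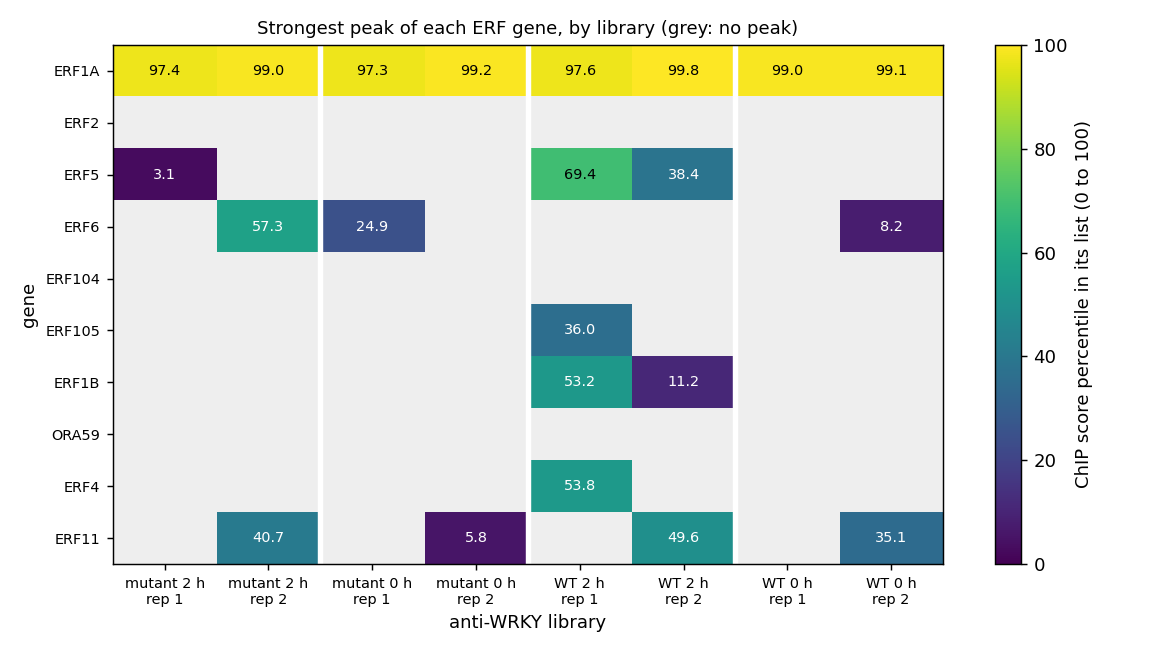
Percentile of the strongest peak of each ERF gene (rows) in each of the 8 anti-WRKY libraries (columns), with grey where no peak was assigned. ERF1A stands at 97.3 to 99.8 in every library, ERF11 has calls in replicate 2 alone, and ERF2, ERF104 and ORA59 have none.

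The peaks of these genes lay in promoters, in intergenic sequence and near transcript ends. The authors' annotation put 8 of the 23 peaks (34.8%) at a promoter or start site (class promoter-TSS), against 64.6% of all peaks. It put 10 (43.5%) in intergenic sequence, against 15.5%, and 5 (21.7%) near a transcript end (class TTS), against 14.2%. ERF1A accounts for 9 of the 10 intergenic peaks, so these shares rest largely on that gene and were not tested.

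ERF1A, an activator of GCC-box genes, had the highest percentiles of the 10 genes, at a site far upstream of its start, and it alone was called in every library. The ChIP score was 27.9 and 31.9 in mutant 2 h libraries (replicates 1 and 2), 26.9 and 34.2 in mutant 0 h libraries, 28.2 and 41.5 in WT 2 h libraries, and 33.3 and 30.2 in WT 0 h libraries. Its rank in those lists was 55 and 23, 40 and 14, 49 and 6, and 15 and 13.5 (a tie), in the same order. ERF1A therefore stood among the top 55 peaks of every list, with the lowest score in a replicate 1 library of the mutant and the highest in a replicate 2 library of WT.

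Scores of ERF1A in all 4 groups overlapped. They averaged 29.9 ± 2.79 in mutant 2 h libraries, 30.5 ± 5.19 in mutant 0 h libraries, 34.8 ± 9.42 in WT 2 h libraries and 31.7 ± 2.17 in WT 0 h libraries (SD, n = 2 each). The percentile was 97.3 to 99.0 in the replicate 1 libraries and 99.0 to 99.8 in the replicate 2 libraries, and the peak was 438 to 490 bp wide in replicate 1, against 356 to 413 bp in replicate 2. Only 1.67% of protein-coding genes had a peak in all 8 libraries, as ERF1A had. Over the 496 regions called in every library, ERF1A took place 4 by mean percentile, at 98.5.

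The ERF1A site varied in position about as much as other constant sites. The authors' peak maximum fell between 9757290 and 9757413 on chromosome 4 (TAIR10), a range of 123 bp, against a median range of 117 bp over the regions called in all libraries (quartiles 88.0 and 185.5 bp). Peak centres lay at -1948 to -1994 bp from the ERF1A start (negative values are upstream), in sequence annotated as intergenic. A weaker peak of ERF1A, at -2508 bp and with a percentile of 31.3, was called in WT 2 h replicate 1 alone.

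ERF6, an activator and the neighbour of ERF1A, shares this upstream interval. Start sites recovered from the authors' distances lay 5458 bp apart, with ERF6 on the minus strand and ERF1A on the plus strand, so that the genes face away from each other, and no protein-coding gene or pseudogene stands between them in the RefSeq gene order. Counted from ERF6, the ERF1A site lies at -3464 to -3510 bp. Nearest-promoter assignment gives the site to ERF1A because that start is closer.

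ERF6 had calls of its own at its start in 3 of 8 libraries, at -102 to -143 bp. They were in mutant 2 h replicate 2 (percentile 57.3), mutant 0 h replicate 1 (24.9) and WT 0 h replicate 2 (8.16), and neither WT 2 h library had one. No group had the call in both replicates. The peaks overlapped one another on chromosome 4 between 9753680 and 9754341.

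**Figure D2:**
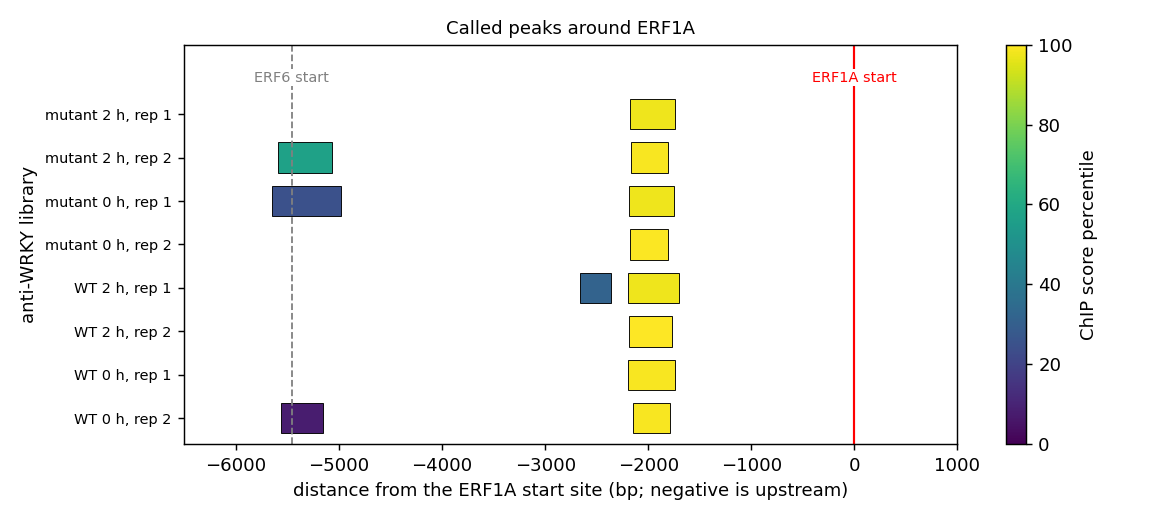
Called peaks (bars, coloured by percentile) in each library, placed by distance in bp from the ERF1A start site, with the ERF6 start as a dashed line. The strong upstream site, at -1948 to -1994 bp, is in all 8 libraries, and weaker peaks cover the ERF6 start in 3 of them.

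ERF5 and ERF2, both activators, form the other neighbouring pair. ERF5 was assigned a peak in 3 of 4 libraries at 2 h and in 0 of 4 at 0 h, at 1289 to 1372 bp downstream of its start, near the transcript end. The percentile was 3.05 in mutant 2 h replicate 1, and it was 69.4 and 38.4 in WT 2 h replicates 1 and 2. The mutant call ranked among the weakest of its list, and the 3 peaks shared a region of chromosome 5 from 19180745 to 19181712. Within replicate 1 both genotypes had the call at 2 h and neither at 0 h, and within replicate 2 only WT did.

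The start of ERF5 was covered as well, under another gene's name. In 3 libraries a peak labelled as lying in the ERF5 promoter was assigned to AT5G47229, whose start is 89 bp from that of ERF5 on the opposite strand. These calls were in mutant 2 h replicate 2 (percentile 25.2), mutant 0 h replicate 2 (44.3) and WT 2 h replicate 2 (9.74), with centres at -62 to -192 bp from the ERF5 start and maxima within 7 bp. All 3 are replicate 2 libraries and 1 is untreated. Counting a peak for ERF5 by either label, a choice made after seeing the data, gave calls in 2 of 2 mutant 2 h libraries, 1 of 2 mutant 0 h libraries, 2 of 2 WT 2 h libraries and 0 of 2 WT 0 h libraries.

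The strongest peak near ERF5 and ERF2 was assigned to AT5G47225, a pseudogene that stands between them in the RefSeq gene order. This site was called in 7 of 8 libraries, with percentiles of 95.2 and 98.4 in mutant 2 h libraries, 98.1 and 99.0 in mutant 0 h libraries, 95.2 and 97.3 in WT 2 h libraries, and 98.0 in WT 0 h replicate 2. WT 0 h replicate 1, the table with absent numbers, had no row there. AT5G47225 was 1 of 60 genes called in the other 7 libraries and not in that one, against 9 to 47 genes missing in this way from each of the other libraries. The site's maxima fell between 19176793 and 19176857 on chromosome 5, and its centre lay at -3103 to -3136 bp from the ERF5 start.

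ERF2 itself was assigned no peak. The nearest calls on its side of AT5G47225 were at -670 and -600 bp from the start of that pseudogene, in WT 0 h replicate 2 and WT 2 h replicate 2, with percentiles of 48.6 and 54.6. Its neighbours on the other side, AT5G47210 and RAB1A, had no peak in any library.

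**Figure D3:**
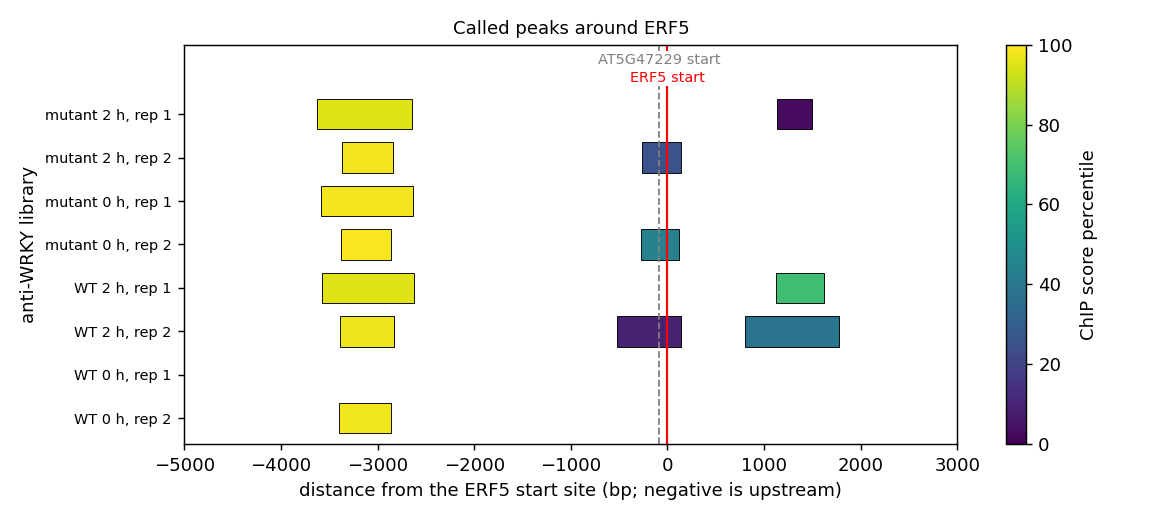
Called peaks (bars, coloured by percentile) in each library, placed by distance in bp from the ERF5 start site, with the AT5G47229 start as a dashed line. A strong site at -3103 to -3136 bp is in 7 libraries, peaks at the start are in 3 replicate 2 libraries, and peaks centred 1289 to 1372 bp downstream are in 3 libraries at 2 h.

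ERF1B, which joins ethylene and jasmonate signals, was called in the 2 WT 2 h libraries and in none of the other 6. The calls were at different places, at 1087 bp in replicate 1 (percentile 53.2, near the transcript end) and at 2504 bp downstream of the start in replicate 2 (11.2, intergenic), so no single region held both. Both lie on chromosome 3, at 8296417 to 8297046 and at 8297922 to 8298374. The authors' ef scores of these peaks were 2.94 and 4.37. TDR1 and ESE1, the next ERF genes along the chromosome and named as neighbours after their values were seen, had promoter peaks of their own in 3 and 4 libraries, with starts 5578 and 7694 bp away. MYB15, a defence-associated MYB gene on the other side of ERF1B, was called in all 8 libraries, at percentiles from 19.7 to 84.8 counting all its peaks. ORA59, another gene that joins both hormones, had no peak, and its neighbour AT1G06170 had a transcript-end peak in all 8 libraries, with percentiles from 4.99 to 69.1.

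ERF104 and ERF105 are close relatives in the same subgroup. ERF104 had no peak in any library, and neither had its nearest 2 genes on either side. ERF105 had 1 peak, in WT 2 h replicate 1, at -566 bp with a percentile of 36.0 (chromosome 5, 20801671 to 20802294). Its neighbour AT5G51180 had promoter peaks in 5 libraries, at -20 to -128 bp.

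Of the repressors, ERF11 had calls that split by replicate. A promoter peak at -34 to -63 bp was called in the 4 replicate 2 libraries and in no replicate 1 library, with percentiles of 40.7 in mutant 2 h libraries, 5.82 in mutant 0 h libraries, 49.6 in WT 2 h libraries and 35.1 in WT 0 h libraries. The maxima lay within 29 bp, between 9956994 and 9957023 on chromosome 1. This pattern was shown by 0.517% of protein-coding genes, and the reverse, replicate 1 alone, by 0.321%. The peaks were 207 to 234 bp wide, narrower than the median of any list.

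Further upstream of ERF11 lay a more constant site, labelled in every library as the promoter of another gene, AT1G28375. The start of AT1G28375 is 4115 bp from that of ERF11, on the opposite strand. The peak was called in all 8 libraries, at -509 to -698 bp from the AT1G28375 start, and neither label tied it to ERF11. Counted from the ERF11 start, its centres lay at -3418 to -3606 bp. Its percentile was 33.1 and 57.3 in mutant 2 h libraries, 21.5 and 79.1 in mutant 0 h libraries, 8.39 and 73.3 in WT 2 h libraries, and 14.9 and 78.1 in WT 0 h libraries. Replicate 2 stood above replicate 1 in each group. NSL1, a gene that restrains cell death and the next one along, was also called in all 8 libraries, at 89.7 to 97.5.

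ERF4, the other repressor, had 1 peak, at 1799 bp downstream near the transcript end in WT 2 h replicate 1 (percentile 53.8, chromosome 3, 5122945 to 5123498). Its nearest 2 genes on either side had no peak.

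**Figure D4:**
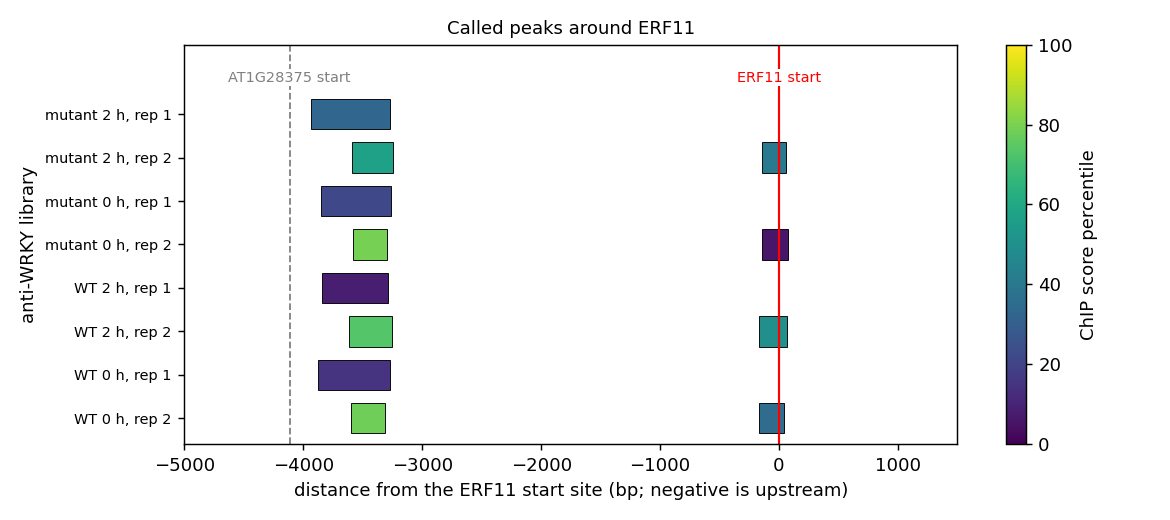
Called peaks (bars, coloured by percentile) in each library, placed by distance in bp from the ERF11 start site, with the AT1G28375 start as a dashed line. The upstream site, labelled as the AT1G28375 promoter, is in all 8 libraries, and the promoter peak of ERF11 is in the 4 replicate 2 libraries.

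Between 2 h and 0 h in WT, 2 of the 7 ERF genes with a peak were gained (7.92% of genes with a peak in those libraries). These were ERF5 and ERF1B; a gained gene has a call in each 2 h library and in no 0 h library, and a lost gene the reverse. Replicate pair 1 taken alone had 4 such genes (ERF5, ERF105, ERF1B and ERF4), as had the comparison without WT 2 h replicate 2, and pair 2 had ERF5 and ERF1B. Neither gene was gained with peaks limited to 2000 bp upstream to 500 bp downstream of the start, since their peaks lie further downstream, nor with peaks that scored at or above the median of their list. With the added requirement, set after seeing the data, that 1 merged region meet the rule, ERF5 alone was gained. No ERF gene was lost, against 2.26% of genes, but ERF6 would be without WT 0 h replicate 1 or within pair 2.

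In the mutant none of the 4 ERF genes with a peak was gained between 2 h and 0 h, against 3.75% of genes, and none was lost, against 0.447%. Each replicate pair of the mutant taken alone gained 1 gene, namely ERF5 in pair 1 and ERF6 in pair 2, while ERF6 was lost in pair 1. Without replicate 2 of the mutant at 2 h ERF5 would count as gained. Whether the change in calls differed between mutant and WT was not tested.

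Between mutant and WT at 2 h, ERF1B was called in both WT libraries and in neither mutant library, out of 7 ERF genes with a peak, against 1.6% of genes. None was called in both mutant libraries and neither WT library, against 1.67%. Without WT 2 h replicate 2 the genes called in WT alone would number 3 (ERF105, ERF1B and ERF4), and without mutant 2 h replicate 1 they would number 2 (ERF5 and ERF1B). No gene was called in WT alone where 1 merged region had to meet the rule. ERF6 would be called in the mutant alone without mutant 2 h replicate 1. At 0 h none of the 3 ERF genes with a peak differed by this rule in either direction, against 1.49% of genes called in the mutant alone and 0.699% in WT alone.

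Pooling genotypes or times left no ERF gene past the threshold of 0.05 in an exact two-sided permutation test of called or not called, Benjamini-Hochberg adjusted over 3609 genes. For 2 h against 0 h the unadjusted exact p was 0.143 for ERF5 (called in 3 of 4 against 0 of 4 libraries) and 0.429 for ERF1B (2 of 4 against 0 of 4), with an adjusted p of 1 for both. For mutant against WT the exact p was 0.429 for ERF1B (0 of 4 against 2 of 4), again with an adjusted p of 1. No gene of the series passed in either contrast by this test, and 46 genes for time and 2 for genotype had an unadjusted p below 0.05. The smallest p that 4 against 4 libraries can give is 0.029, and 2 against 2 cannot go below 0.33, so comparisons of 2 groups were not tested gene by gene.

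The genes whose percentiles were most like those of ERF1A over the 8 libraries were CAD1 (AT5G44070, a phytochelatin synthase gene), AAT1 (AT4G21120, an amino acid transporter gene) and AT5G43420 (the RING-H2 gene ATL16), with mean absolute differences of 0.910, 1.34 and 1.56 percentile points. For ERF5 they were IAGLU (AT4G15550), AT5G57000 and AT5G64650, at 0.953, 1.96 and 2.49 points. Each of these 3 was called in 2 libraries, and libraries without a call count as 0, so shared absence of calls enters the likeness. For ERF1A, at 97.3 to 99.8 in every list, any gene near the top of all lists lies close by.

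Other ERF and ethylene pathway genes were taken from a list of 60, of which 23 had a peak in some library, where 12.4% of protein-coding genes had one. Both replicates called 9 of them in mutant 2 h (15.0%), 8 in mutant 0 h (13.3%), 13 in WT 2 h (21.7%) and 7 in WT 0 h (11.7%). WT 2 h had the most, against the 2.83% to 3.87% of protein-coding genes given above. This list, too, was chosen with earlier results of these data known, so these shares were not tested and are no separate support. No peak was assigned to any of 5 group VII ERF genes, which include the hypoxia regulators, or to any of 7 defensin and pathogenesis-related target genes. These lists are too short for 0 to stand apart from the share over all genes.

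Of these genes 6 had a peak in all 8 libraries. Among ERF genes they were ERF14 (percentile of the strongest peak 73.5 to 96.2, at -805 to -922 bp), AT2G33710 (45.3 to 96.6, at -1165 to -1340 bp) and ERF115 (14.9 to 81.2, at -2141 to -2373 bp). ERF14, a regulator of defence genes, stood high in every list. Among ethylene synthesis genes they were ACS6 (53.7 to 99.9) and ACS8 (2.07 to 89.5), which encode ACC synthases, and EFE (7.05 to 78.4), an ACC oxidase gene.

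For ACS6 the percentile was 98.9 and 72.5 in mutant 2 h libraries, 96.6 and 55.3 in mutant 0 h libraries, 99.9 and 88.5 in WT 2 h libraries, and 95.4 and 53.7 in WT 0 h libraries. These peaks were not all at 1 site: they lay at -1771 to -1889 bp, except in mutant 0 h replicate 2 and WT 0 h replicate 2, where the strongest peak lay 2104 and 2135 bp downstream of the start. For EFE it was 71.9 and 62.3 in mutant 2 h libraries, against 7.05 and 17.3 in mutant 0 h libraries, and 78.4 and 72.3 in WT 2 h libraries, against 32.1 and 16.4 in WT 0 h libraries. The strongest EFE peak lay at -353 to -551 bp in mutant 2 h replicate 2, mutant 0 h replicate 1 and WT 2 h replicate 1, and at -1432 to -1578 bp in the other 5 libraries. The 2 h and 0 h percentiles of EFE did not overlap in either genotype, but they come from different sites and from lists of different lengths.

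In WT 22 of the 60 genes had a peak, of which 2 were gained between 2 h and 0 h and none was lost, against 7.92% and 2.26% over all genes. None was gained or lost in the other comparisons, with 19 genes in the mutant, 22 at 2 h and 17 at 0 h. Over all genes 3.75% were gained and 0.447% lost in the mutant. Called in the mutant alone were 1.67% at 2 h and 1.49% at 0 h, and in WT alone 1.6% and 0.699%. With so few genes, 0 does not stand apart from these shares. EBF2, an F-box protein gene that limits EIN3, had percentiles of 67.5 and 43.2 in WT 2 h libraries, and 56.5 in mutant 2 h replicate 1. ACS7, another ACC synthase gene, had 53.2 and 77.7 in WT 2 h libraries, and 26.1 in mutant 2 h replicate 2. The WT peaks of ACS7 overlapped, centred 3188 and 2780 bp downstream of the start, and the mutant peak lay elsewhere, at -220 bp. Neither was called in any library at 0 h. RRTF1 and ABR1, stress-associated ERF genes named after their values were seen, had peaks in 7 libraries each and, like AT5G47225, none in WT 0 h replicate 1. ACS2, an ethylene synthesis gene also named after its values were seen, had peaks in 7 libraries too. For ACS2 the library without a peak was mutant 0 h replicate 1.

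**Figure D5:**
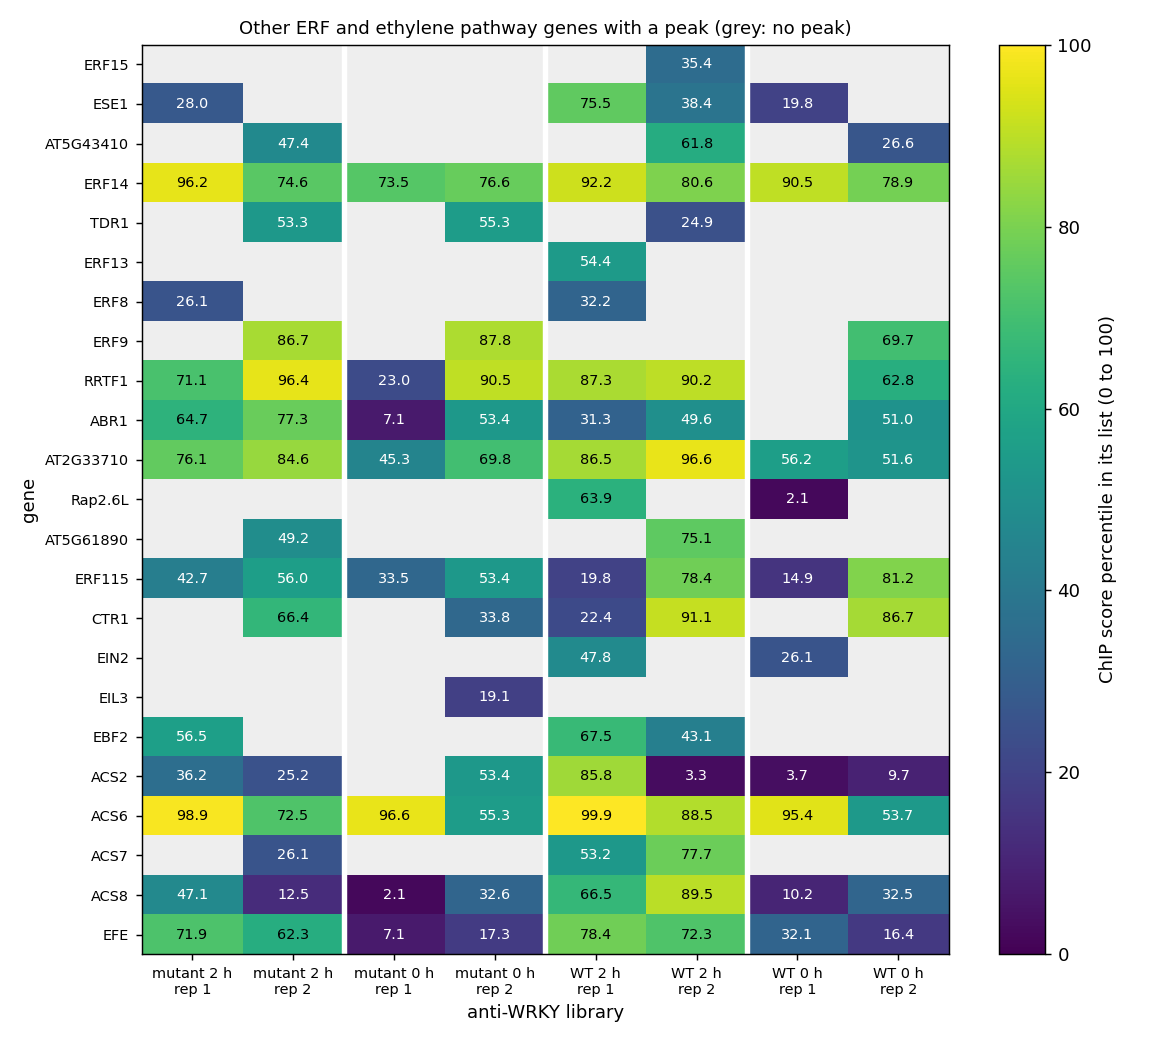
Percentile of the strongest peak of each of the 23 other ERF and ethylene pathway genes with a peak (rows) in each of the 8 libraries (columns), with grey where no peak was assigned. ERF14, AT2G33710, ERF115, ACS6, ACS8 and EFE have a value in every column.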

How the data were processed

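Each of the 8 anti-WRKY libraries had 1 peak list, and input DNA was the control for peak calling, per the labels; input data were not used here. Per the labels' protocols, DNA was linearly amplified before library construction, which can change the balance between fragments. The build listed, per the submitters' processing notes, is TAIR10, and the tools are HOMER, SAMtools 0.1.18, Bowtie2 2.0.5, cutadapt 1.2.1 and FastQC 0.11.2. No peak caller is named in the sources used here. The deposited columns hold the authors' ChIP, ef and region log q score of each peak, of unstated scale, its position in bp, an annotation and the nearest promoter's gene with its distance.

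Percentiles, calls and merged regions (at least 1 shared bp) were computed with Python 3.11.15 and pandas 2.3.3. Start sites were recovered from peak centres and distances where a gene had at least 2 peaks, and agreed within 0.5 bp. Protein-coding genes, gene order and names came from the RefSeq table of TAIR10.1, which held 3564 of the 3609 assigned genes and all 70 list genes. The 10 genes and the lists were chosen with earlier results of these data known. Named were all 10 genes and, of the 60 others, those called in all libraries or gained or lost. Neighbouring genes, RRTF1, ABR1 and ACS2 were named in addition, after their values were seen, except AT5G47225. The exact permutation test was checked on simulated calls.

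The series' design text ties the replicate number to a shared replicate; differences between replicates correlated between groups over 3886 regions (0.320 to 0.459). Alternatives were other start-site windows, merged regions, score and ef score minimums, equal list lengths, a looser call rule, the replicate block, leaving out each library and, added later, assignment by annotation and a call in 1 merged region.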

Additional observations from a re-analysis of the deposited data

Results flagged for a closer look

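The annotation column of the tables was not used to choose peaks, yet it named ERF5 for 3 peaks whose nearest promoter was AT5G47229. Their percentiles were 25.2 in mutant 2 h replicate 2, 44.3 in mutant 0 h replicate 2 and 9.74 in WT 2 h replicate 2. None of the other 9 ERF genes had such a peak. No peak list of a control library was used, so these calls have no background measured the same way. Groups of 2 libraries are too small for a search for outlying samples.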

How the results depend on the processing

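In the order mutant 2 h, mutant 0 h, WT 2 h and WT 0 h, the ERF genes called in both libraries numbered 1, 1, 3 and 1. With a window of 1000 bp upstream to 500 bp downstream of the start there were 0 in each group. With 2000 bp upstream, or with peaks at or above the median score, there was 1 in WT at 2 h. With equal numbers of peaks, or with an ef score of 5 or more, there were 2 in WT at 2 h. With the annotated gene accepted too there were 2 in the mutant at 2 h. Called in at least 1 library were 4, 3, 6 and 3. Leaving out a library gave 2 to 3, 2 to 2, 4 to 5 and 1 to 3.

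Gained in WT at 2 h against 0 h were 2 genes, but 0 with either window or above the median score, 1 with equal numbers of peaks, 1 with an ef score of 5 or more, 4 by the looser rule and 2 to 4 without a library. Called in WT alone at 2 h was 1 gene, but 0 with either window, above the median score or with an ef score of 5 or more, 3 by the looser rule and 1 to 3 without a library. The looser rule gave 1 gained in the mutant, 1 lost in WT and 1 called in the mutant alone at 2 h, where each main count was 0 and leaving out a library gave 0 to 1.

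With the replicate block, the mean count within pairs was 3 gained and 0.5 lost in WT, 1 gained and 0.5 lost in the mutant, 0.5 called in the mutant alone and 2.5 in WT alone at 2 h, and 0.5 in either alone at 0 h. For a single ERF gene signs permuted within 4 pairs cannot give an exact p below 0.125. Counting by any merged region of a gene changed none of the 12 counts, but this still accepts calls at different sites. With 1 merged region required, an alternative added after seeing the data, 1 gene was gained in WT, 0 were called in WT alone at 2 h and 2 were called in both WT 2 h libraries. Of 320 alternative values for single genes, 138 kept a direction, 138 stayed at 0, 20 became 0, 22 left 0 and 2 reversed. The values of ERF2, ERF104 and ORA59, which had no peak, could only stay at 0. The replicate block repeats the main difference by construction. These totals therefore do not measure how stable the differences are. ERF5 and ERF1B had no difference left with either window, and ERF1B none with an ef score of 5 or more. The difference in libraries called, mutant minus WT, reversed for ERF5 to 25 percentage points with the annotated gene accepted, and for ERF6 the 2 h minus 0 h difference reversed to 25 above the median score. Without mutant 2 h replicate 2, ERF5 was called in all remaining libraries at 2 h (unadjusted exact permutation p = 0.029). That library is the only library at 2 h without the call, so leaving it out fixes this outcome. The p is the smallest of the 320 alternative values, and with all libraries the same test gave 0.143. The causes of these shifts were not tested beyond what each setting removes. Depth is unknown, which limits what an absent call shows.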
